A study of Mus musculus with 2 samples.

Results

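The integrated stress response genes described here are 10 genes, chosen by name because they belong to this pathway or are induced by it: Gdf15, Atf3, Atf4, Ddit3, Trib3, Chac1, Asns, Sesn2, Ddit4 and Ppp1r15a. They were taken as every non-control probe of the array that carried 1 of these names, which gave 13 probes among 56605, and 10 of the 37067 gene names on the array. All 13 probes were well above background on both arrays, so that every member was measured, and the members stand among 26528 genes measured on both. The names were proposed with the ratio between the arrays already known, Gdf15 in particular, so the values below are a description of the members and none was tested.

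The study compared cochlear tissue of female C57BL/6 mice (an inbred strain) aged 7 weeks. The noise sample came from animals that received 2 h of intense noise and were dissected 3 h later, and the baseline sample came from animals that received none. Each was 1 sample of total RNA on 1 Agilent 1-colour array, so there was no replicate, and every difference below lies between 2 samples. The labels used here do not give how many mice each sample pooled, the sound level, or the hour of dissection. All 18 cochlear marker genes checked, among them Coch, Otoa, Tecta, Myo7a and Slc26a5, were well above background on both arrays. So were 26528 of the 37067 gene names on the array, so the count of markers is not read as evidence of cochlear tissue. Of the markers named, Tecta and Slc26a5 were dim on both arrays.

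The integrated stress response is a shared answer of cells to amino acid shortage, unfolded protein in the endoplasmic reticulum, heme shortage, viral RNA or failing mitochondria. Such stresses activate kinases that phosphorylate the translation initiation factor eIF2alpha. General protein synthesis then falls, while the messenger RNA of the transcription factor ATF4 is translated more. ATF4, with its partners ATF3 and CHOP (the product of Ddit3), then turns on genes of amino acid supply, redox balance and growth control, and among its outputs is the secreted hormone GDF15, which acts on appetite through a receptor in the hindbrain. Because ATF4 is controlled largely at translation, its messenger RNA level need not follow its activity.

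The probes are 60 bases long, and 3 of them are shown because Atf4, Ddit3 and Asns each had a second probe against which this one can be compared. Each reads without a stop codon in 1 forward frame, and 12 of 13 member probes do so in at least 1 frame. The share over all probes of the array was not counted, so an open frame is not read as coding sequence. The sequences are those of the array design, 5′ to 3′, with no part in capitals, and coordinates are on the mm9 assembly. The Ddit3 and Asns probes span 304 and 146 bases of the genome, more than their own length. The letters AATAAA, the usual polyadenylation signal near the end of a transcript, occur in 5 of the 13 probes: those of Gdf15 and Trib3, Atf4 probe 2, Ddit3 probe 1 and Asns probe 1. Their share over all probes was not counted either. For Gdf15 and Trib3, each with a single probe, 30 bases are shown with these letters in capitals, which begin at base 39 of the Gdf15 probe and at base 30 of the Trib3 probe.
Atf4 probe 1, chr15:80087079-80087138, plus strand: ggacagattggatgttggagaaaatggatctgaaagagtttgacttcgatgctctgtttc
Ddit3 probe 2, chr10:126732518-126732821, plus strand: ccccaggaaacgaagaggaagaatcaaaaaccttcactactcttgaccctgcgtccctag
Asns probe 2, chr6:7626110-7626255, minus strand: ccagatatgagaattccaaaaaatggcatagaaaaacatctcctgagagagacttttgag
Gdf15, 30 bases of the probe: taaaactctgctAATAAAggtgagcttggt
Trib3, 30 bases of the probe: catcatgtgcccAATAAAagagagctgtgt

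Gdf15 and Atf3 were the members that stood more than 2-fold higher after noise, and no member was 2-fold lower. Over all 26528 measured genes 0.611% were at least 2-fold higher and 1.25% at least 2-fold lower, but the members were named with this contrast known, so nothing is read from their count against that share. The other 8 members lay between 1.27-fold lower (Ddit4) and 1.38-fold higher (Trib3). A log2 ratio here is noise minus baseline of the processed signal, each array divided by its own 75th percentile (316 after noise, 278 at baseline), so a fold differs from the plain quotient of the signals. Of the 10 members 7 had a log2 ratio above 0, as did 47.5% of all measured genes. The median of the members was 0.16 and that of all genes -0.01. Counts above 0 depend on the scaling, since with spike-in probes as the standard the median of all genes was 0.21 and 9 members lay above 0. At 1.5-fold the members higher were again Gdf15 and Atf3, where 3.02% of all genes were higher, and no member was lower, where 4.99% of all genes were. In tissue RNA, fewer cells that express a gene and less of its RNA per cell cannot be told apart.

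**Figure D1:**
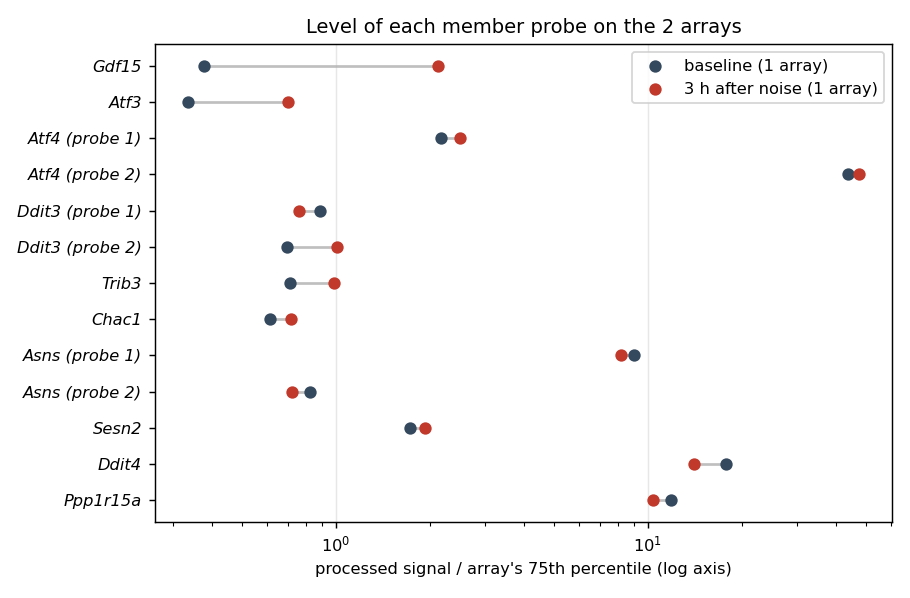
Level of each of the 13 member probes on the 2 arrays, as processed signal divided by the array's 75th percentile (log axis, 1 spot on 1 array per point, no error bar). Gdf15 runs from 0.378 at baseline to 2.12 after noise and Atf3 from 0.336 to 0.700, while the points of most other probes lie close together; levels of different probes cannot be set against each other.

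Gdf15, the stress-induced hormone of the TGF-beta superfamily, had a processed signal of 671 after noise and 105 at baseline. Divided by the 75th percentile these are 2.12 and 0.378, a 5.61-fold higher level after noise, with a log2 ratio of 2.49. This rests on 1 probe with 1 spot per array, at chr8:73153293-73153352. The scanner software gives a spot of this brightness an error of about 10% of its signal, which amounts to 0.20 on the log2 ratio. Gdf15 ranked 3 from the highest among all measured genes. With normexp background correction its log2 ratio was 2.06. That method corrects each spot by a model of signal and background and then adds a constant. It started from the spot's mean signal and local background, not from the processed signal.

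Genes near Gdf15 in log2 ratio, over these 2 arrays alone, were sought among measured genes with a standard symbol. Clone, predicted-gene and accession names were left out. The nearest were Tnfrsf12a (2.43), a cytokine receptor gene, and Rbp7 (2.30), which encodes a retinoid-binding protein. Next came the monocyte chemokine gene Ccl7 (2.21), the small GTPase gene Gem (2.19) and Helt (2.10), a transcription factor gene. With 2 arrays such likeness is only likeness in 1 number.

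Among the transcription factors, Atf3 stood apart from Atf4 and Ddit3. Atf3, an inducible bZIP factor that dimerizes with ATF4, CHOP and AP-1 proteins, had signals of 221 after noise and 93.5 at baseline, or 0.700 and 0.336 after scaling. It was 2.08-fold higher (log2 ratio 1.06, error of the software 0.20) and ranked 139 from the highest. The excess over the 2-fold line was smaller than that error, and with the normexp background Atf3 was at 0.75, under 2-fold. Its probe lies at chr1:192994547-192994606.

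Atf4, which encodes the pathway's central factor, was measured by 2 probes. Probe 1 had signals of 790 after noise and 605 at baseline, a log2 ratio of 0.20. Probe 2 had signals of 14991 and 12152 and a log2 ratio of 0.12. The probes differed by 0.08, and neither ratio exceeded its software error of 0.20. The gene's log2 ratio was 0.16.

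Ddit3, which encodes the stress factor CHOP, gave probes that pointed in different directions. Probe 2, designed on the RefSeq transcript, had signals of 317 after noise and 194 at baseline and was 1.44-fold higher (log2 ratio 0.52). Probe 1, designed on a separate Ensembl transcript and lying upstream of it at chr10:126731579-126731638, had signals of 241 and 248 and a log2 ratio of -0.22. The ratios were 0.75 apart. Over the 9348 genes with several measured probes, single probe ratios had an SD of 0.27 within a gene. A difference between 2 probes spreads wider than that SD. The gene value of 0.15 is the midpoint of these probes and describes neither.

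**Figure D2:**
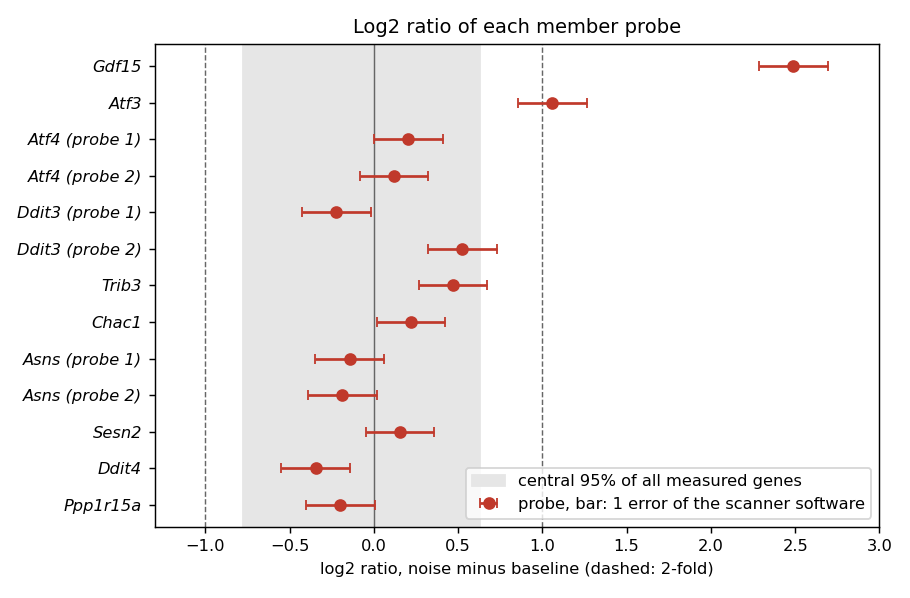
Log2 ratio (noise minus baseline) of each of the 13 member probes, with a bar of 1 software error on each side, dashed lines at 2-fold and a grey band for the central 95% of all measured genes, from -0.77 to 0.63. Only Gdf15 and Atf3 lie outside the band, and the Ddit3 probes lie on opposite sides of 0.

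Trib3 and Chac1 are both induced by ATF4 and CHOP, and other members are induced by the pathway as well. Among the 10 members, their gene values were the highest after Gdf15 and Atf3. Chac1 lay within the SD of 0.27 between probes of a gene, and with the brightest probe Ddit3 was above both, at 0.52. Nothing about these factors is read from the order. Trib3, a pseudokinase that binds ATF4 and restrains it, had signals of 311 after noise and 198 at baseline, or 0.983 and 0.710 after scaling, a log2 ratio of 0.47. It ranked 1383 from the highest and lay inside the central 95% of genes. Chac1, an enzyme that breaks down glutathione, had signals of 226 and 171, a log2 ratio of 0.22.

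Asns, which encodes asparagine synthetase and is a classic marker of amino acid shortage, was not higher on either probe. Probe 1 had signals of 2586 after noise and 2518 at baseline, and probe 2 had 229 and 230. Their log2 ratios of -0.14 and -0.19 differed by 0.04. The gene's value was -0.17, and it was at 0.06 with spike-in scaling.

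The growth-control outputs differed little between the arrays. Sesn2, encoding a sestrin that restrains the growth kinase complex mTORC1, had signals of 609 after noise and 482 at baseline, a log2 ratio of 0.16. Ddit4, which encodes REDD1, another mTORC1 inhibitor that also responds to hypoxia and glucocorticoids, had signals of 4426 and 4955 and the lowest log2 ratio of the members, -0.35. The phosphatase subunit gene Ppp1r15a (GADD34), which reverses eIF2alpha phosphorylation and so ends the response, had signals of 3272 and 3309 and a log2 ratio of -0.20. With spike-in scaling Ppp1r15a was at 0.02, and Ddit4 stayed below 0 at -0.12.

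**Figure D3:**
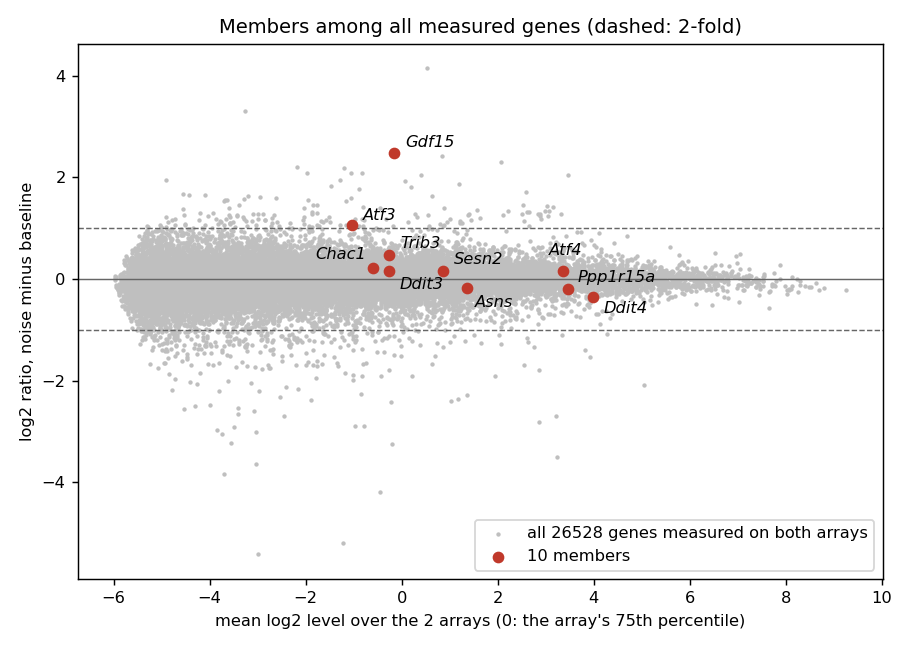
Log2 ratio (noise minus baseline) against the mean log2 level over both arrays, for all 26528 measured genes (grey) and the 10 members (red), with dashed lines at 2-fold. Gdf15 at 2.49 lies near the upper edge of the cloud, Atf3 at 1.06 just above the upper line, and the other 8 members within the lines.

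The spread of the members against the technical error was uneven. Repeat spots of the same probe gave a log2 ratio an SD of 0.07, and different probes of a gene an SD of 0.27. By the second measure 3 members lay above 0 by more than 1 SD (Gdf15, Atf3 and Trib3), 1 lay below by more (Ddit4) and 6 lay within it. Over all measured genes 13.2% lay above 0 by more than this SD and 17.4% below, and nothing is read from the members' count against these shares. The interval from Gdf15 to Atf3 was 1.43 in log2 and that from Atf3 to Trib3 was 0.59. The order of Chac1, Atf4, Sesn2 and Ddit3, between 0.22 and 0.15, cannot be read beyond this spread.

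**Figure D4:**
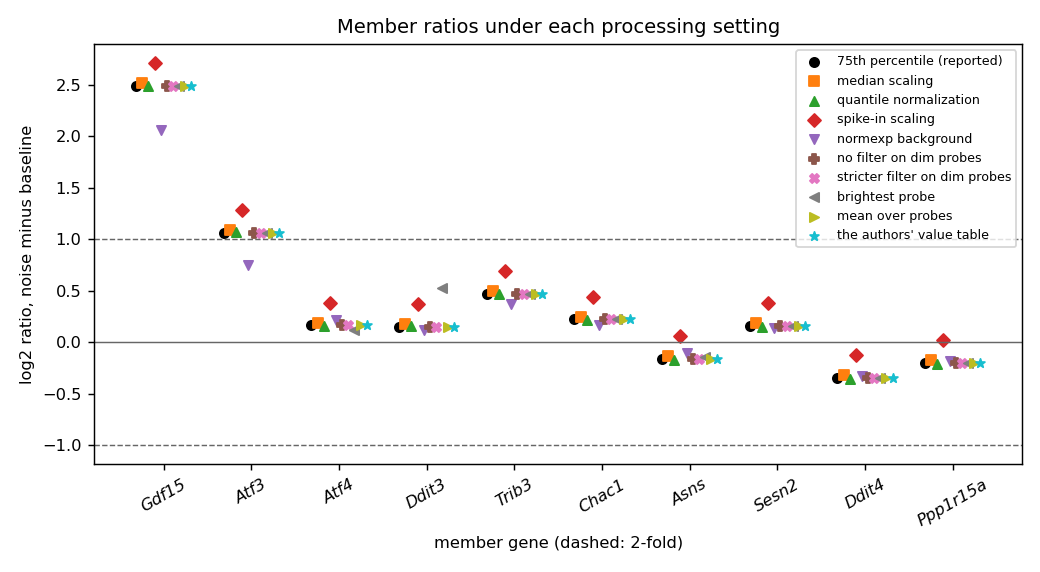
Log2 ratio (noise minus baseline) of the 10 members under the reported processing (black) and 9 alternatives, with dashed lines at 2-fold. Gdf15 stays between 2.06 and 2.71, Atf3 drops to 0.75 with the normexp background, and spike-in scaling raises each member, taking Asns and Ppp1r15a above 0.

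Promoter sequence was examined for the element through which ATF4 and its partners act, the C/EBP-ATF response element, searched as TGATGNAA on both strands (TTNCATCA on the other). RefSeq windows of 300 bases on GRCm38.p6, from 250 bases before the gene start to 50 after, were found for all 10 members, with 11 windows because Gdf15 has 2 starts. The element was present in windows of 4 members, Atf3, Trib3, Chac1 and Asns, and in 3.97% of all 32851 windows. Counted from the start, the match lies from -110 to -103 in Atf3, from -193 to -186 in Chac1, from -23 to -16 in Asns and from 15 to 22 in Trib3. The log2 ratios of these 4 genes ran from -0.17 (Asns) to 1.06 (Atf3). Neither Gdf15 window holds these letters, which says nothing about binding of the factor. The 250 bases before the start are shown for Gdf15, from its upstream start, and for 3 members with a match there, with 30 bases around the match of Trib3. Capitals mark the match, and the Gdf15 stretch has none.
Gdf15, chr8:70632457-70632706, minus strand: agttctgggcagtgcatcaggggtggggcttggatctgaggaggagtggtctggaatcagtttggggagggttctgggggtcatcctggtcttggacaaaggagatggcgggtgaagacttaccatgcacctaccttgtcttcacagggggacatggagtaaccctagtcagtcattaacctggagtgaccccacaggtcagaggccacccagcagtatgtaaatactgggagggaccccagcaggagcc
Atf3, chr1:191183334-191183583, minus strand: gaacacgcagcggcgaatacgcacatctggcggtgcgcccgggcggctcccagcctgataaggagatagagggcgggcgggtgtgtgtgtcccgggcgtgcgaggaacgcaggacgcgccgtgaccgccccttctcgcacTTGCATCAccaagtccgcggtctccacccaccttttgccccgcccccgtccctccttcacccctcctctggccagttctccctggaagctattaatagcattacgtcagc
Chac1, chr2:119350992-119351241, plus strand: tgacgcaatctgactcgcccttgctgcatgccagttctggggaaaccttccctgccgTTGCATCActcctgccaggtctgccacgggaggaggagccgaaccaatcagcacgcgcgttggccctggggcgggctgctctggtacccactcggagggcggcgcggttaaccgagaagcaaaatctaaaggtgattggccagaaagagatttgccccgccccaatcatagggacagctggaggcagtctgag
Asns, chr6:7693210-7693459, minus strand: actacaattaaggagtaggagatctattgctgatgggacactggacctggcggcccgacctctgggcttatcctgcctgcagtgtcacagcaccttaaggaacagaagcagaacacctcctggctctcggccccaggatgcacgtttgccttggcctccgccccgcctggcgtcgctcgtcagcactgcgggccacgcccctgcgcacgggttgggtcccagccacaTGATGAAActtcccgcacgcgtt
Trib3, chr2:152344028-152344057, minus strand: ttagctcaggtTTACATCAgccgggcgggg

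Other elements were each found in fewer members. The full cyclic AMP response element TGACGTCA, in 1.79% of all windows, was found in Ppp1r15a from -12 to -5. The AP-1 site TGANTCA, in 7.81% of windows, was found in Ddit3 from -242 to -236. The core of the antioxidant response element, TGACNNNGC, in 12.4% of windows, was found in Asns, Sesn2 and Ppp1r15a. The longer ER stress response element, in 0.119% of windows, was found in no member.

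The measured chromosomal neighbours of the members lay within 2-fold, as most measured genes did. Over all measured genes 0.611% were at least 2-fold higher and 1.25% at least 2-fold lower, so nothing is read from this. Of the 20 nearest protein-coding genes, 1 on each side of a member, 19 were measured, with log2 ratios from -0.60 (Nrsn2, beside Trib3) to 0.54 (Tac1, beside Asns), and 0 were past 2-fold. The neighbours of Gdf15, Lrrc25 and Pgpep1, were at -0.18 and -0.05. Beside Atf3, Nenf was at -0.37, and Fam71a was not measured.

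Upstream of ATF4, the eIF2alpha kinases and the eIF2 machinery differed little. Of 20 measured genes 11 lay above 0 and 9 below, 0 were past 2-fold in either direction, and the median was 0.01. Over all measured genes 47.5% lay above 0, 0.611% were at least 2-fold higher and 1.25% at least 2-fold lower. This list and the pathway lists below were chosen with earlier results of these data known. Nothing is therefore read from their counts against these shares. The highest was Eif2ak2 at 0.56, which encodes the RNA-activated kinase PKR, an interferon-induced gene, and the lowest Eif2b5 at -0.28, a subunit of the exchange factor that recycles eIF2. Kinase activity is set by phosphorylation, which these arrays do not measure.

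In a list of bZIP partners of ATF4 or ATF3 and related factors, which also holds Nupr1 and Cebpz, not bZIP factors, 13 of 16 measured genes lay above 0 and the median was 0.10. The highest was the AP-1 subunit gene Fos at 1.07, the 1 gene of this list past 2-fold on both arrays (0.99 with the normexp background), and the lowest Nfe2l1 at -0.21 (0.02 with spike-in scaling). Fosl1, another AP-1 subunit, cleared background after noise but not at baseline, and was at least 4.66-fold higher. Its signals were low, 23.0 after noise and 2.99 at baseline, and the bound holds for the reported background treatment alone. Of paralogs of the members, 5 of 9 lay above 0, with Trib1 highest at 0.27 and Ddit4l lowest at -0.25 and 0 past 2-fold.

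The amino acid branch, to which Asns belongs, showed small differences in both directions. Of 24 measured genes of amino acid synthesis and transport 14 lay above 0, 0 were past 2-fold and the median was 0.07. The folate enzyme gene Mthfd1l was highest at 0.37 and the transporter gene Slc7a5 lowest at -0.60. Of 14 genes for aminoacyl-tRNA synthetases and a tRNA exporter 9 lay above 0, again with 0 past 2-fold, from Sars at -0.40 to Nars at 0.58, with a median of 0.10. The 2 Sars probes differed, and with its brightest probe Sars was at -0.06.

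Further targets of ATF4 and CHOP had a median of 0.14, with 15 of 23 measured genes above 0 and 0 past 2-fold. Stc2, encoding a secreted stanniocalcin, was highest at 0.63 with signals of 27.9 after noise and 15.9 at baseline, and it was at 0.09 with the normexp background. Vegfa, the vascular growth factor gene, was lowest at -0.54. Its 4 probes ran from -1.08 to 0.28, and with the brightest it was at -0.36. Mitochondrial stress genes, a list that includes Ddit3, had 8 of 12 above 0, a median of 0.04 and 0 past 2-fold. They ran from Dnaja3 at -0.39 to Yme1l1 at 0.22. The 2 Dnaja3 probes were at -0.70 and -0.08. With the brightest probe Dnaja3 was at -0.08 and Yme1l1 at 0.10.

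Targets of XBP1 and ATF6, the other branches of the unfolded protein response, form a list that also holds the genes Atf6 and Ern1. In it 20 of 21 genes lay above 0, where 47.5% of all measured genes did, with a median of 0.24 and 0 past 2-fold. The list was chosen with earlier results known, so nothing is read from this count. The co-chaperone gene Dnajc3 was highest at 0.59, and Hyou1 was the gene below 0 at -0.14 (0.08 with spike-in scaling). A list of p53 targets that also holds the p53 gene, Trp53, had a median of 0.12 with 14 of 22 genes above 0, and p53 can also induce Gdf15 and Sesn2. The apoptosis effector gene Bax was past 2-fold at 1.16 (0.83 with the normexp background and 0.97 with its brightest probe), and Phlda3 was lowest at -0.59. Chosen after their values were seen, Trp53 itself was at 0.98, and the p53 targets Cdkn1a and Mdm2 were at -0.30 and -0.02. Other targets of the list lay above 0, among them Trp53inp1 (0.50), Btg2 (0.38) and Aen (0.37). The part of p53 in the members' ratios was not tested.

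**Figure D5:**
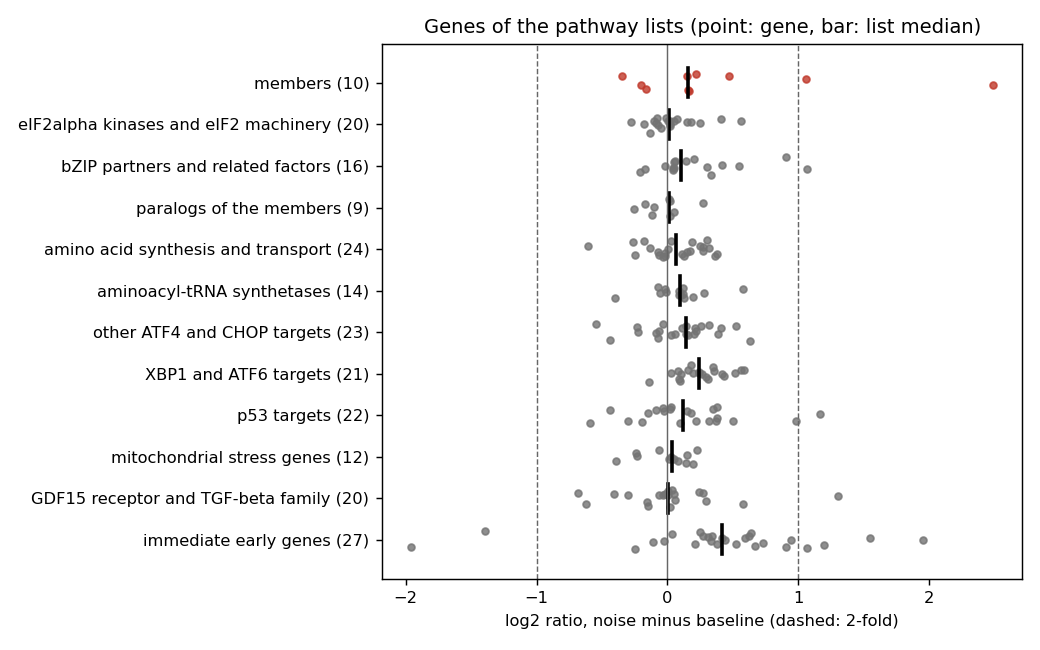
Log2 ratio (noise minus baseline) of each measured gene in the members and 11 pathway lists, 1 point per gene with a vertical bar at the list median and dashed lines at 2-fold; numbers of measured genes are in parentheses. List medians run from 0.01 (GDF15 receptor and TGF-beta family) to 0.42 (immediate early genes), and Gdf15 at 2.49 is higher than any gene of the lists measured on both arrays.

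Markers of tissue around the cochlea differed between the arrays along with these genes. Summed levels, in units of the 75th percentile, were 18.3 after noise against 76.6 at baseline for 10 adipocyte genes, 8.36 against 15.9 for 10 skeletal muscle genes, 4.42 against 12.8 for 9 central neuron and glia genes, and 5.41 against 38.9 for 5 pituitary genes. At least 2-fold lower were 8 of the 10, 5 of the 10, 8 of the 9 and 4 of the 5, where 1.25% of all measured genes were. B cell precursor genes went the other way, with sums of 30.2 after noise and 20.1 at baseline. Of these, 2 of 7 were at least 2-fold higher, where 0.611% of all measured genes were. The sums of 18 cochlear genes were 146 and 118, and those of 9 neutrophil precursor genes 838 and 860. For 11 macrophage and monocyte genes they were 65.9 and 59.6, and for 8 erythroid genes 575 and 635. Sums follow the brightest genes, so they need not go with the counts. Log2 ratios were above 0 in 13 of the 18, 7 of the 9, 6 of the 11 and 2 of the 8, where 47.5% of all measured genes were. Past 2-fold among these was Cd163 alone, at 1.16 in the macrophage list. Of 5 mucosal gland genes 2 were at least 2-fold lower, Bpifb1 (36.6-fold) and Lipf (42.8-fold), and Dmbt1, above background at baseline alone, was at least 67.9-fold lower. The sums of these 5 genes, 59.4 and 67.5, were mostly Ltf, a gene also on the neutrophil list, at a log2 ratio of -0.11. All these lists were chosen with earlier results of these data known, so nothing is read from their counts against those shares. The mucosal genes were named after their values were seen. The part of these tissues in the members' ratios was not tested.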

How the data were processed

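Cochlear RNA of 2 samples, 1 array each, was analysed. Spot intensity in the deposited scanner files was background-subtracted and detrended by Agilent's Feature Extraction (version 11.5.1.1), per the file headers. The arrays shared a slide and a scan. A second deposited table, from the authors, gives log2 of that signal less the column's own 75th percentile, with column medians of -2.81 (noise) and -2.79 (baseline) and no centring per gene, as found from the values.

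Outlier spots were left out (77 and 58), spots of a probe were averaged in log2, and the 75th percentile of the non-control probes of an array was taken as its scale. A probe was measured where well above background on both arrays, and a gene took the median log2 ratio of its measured probes. No spot was saturated. Of the 13 member probes 12 carried a RefSeq accession, all with the array's symbol in the GRCm38.p6 table. Fold, not a test, marks differences: with 1 array per group no p-value was computed. Where a gene was well above background on 1 array only, its level there was set against the higher of its own signal and the lowest signal well above background on the other array, giving an at-least fold.

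The members and lists were chosen with earlier results of these data known. All members are named, with the highest and lowest measured gene of each pathway list and every pathway gene past 2-fold. Also named are the 5 genes nearest to Gdf15 among measured genes with a standard symbol. Alternatives were median, quantile and spike-in scaling (8 probes), normexp background (limma 3.58.1, offset 50), no or a stricter filter on dim probes (the stricter one also asked for a level at or above the 25th percentile), the brightest probe or the mean over probes, the authors' table, and 1.5-fold. The gene summary was tested on simulated data. Python 3.11.15 and pandas 2.3.3 were used.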

Additional observations from a re-analysis of the deposited data

How the results depend on the processing

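Of the 10 alternatives, the normexp background changed the count of members at least 2-fold higher, from 2 to 1 (Gdf15 alone), and moved Gdf15 to 2.06 and Atf3 to 0.75. With the brightest probe Ddit3 was at 0.52. Under the other settings the count was 2, also at 1.5-fold, and Gdf15 lay between 2.49 and 2.71. The median of the members ran from 0.15 to 0.38 over all settings. Dropping the filter, the mean over probes and the authors' table could not change a member's value. All member probes passed the filter, no member had more than 2 probes, and that table holds the same scaled signal. The stricter filter also left every member as reported, so nothing about stability is read from these settings. Spike-in scaling moved the median of all genes to 0.21 and placed 9 of 10 members above 0. It made 65.4% of the genes past 2-fold higher ones, against 32.8% as reported and 43.1% with the normexp background. The median of the members less that of all genes was 0.17 under both scalings, as it must be, since a scaling shifts every gene alike. Over all settings this difference ran from 0.15 (quantile normalization) to 0.23 (no filter on dim probes). With the normexp background, the brightest probe or no filter on dim probes the medians of 5 lists fell just below 0 (eIF2 machinery, paralogs, tRNA synthetases, mitochondrial stress and TGF-beta family, the lowest -0.04). Low signal limits the dimmest values: Stc2 and Egr4 were not measured under the stricter filter on dim probes, while all 10 members were. No paired analysis was possible because the groups hold a single sample apiece, so no replicate could be left out either.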

Other observations

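The receptor that GDF15 needs, Gfral, did not clear background in either sample, and its signalling partner Ret was at 0.27. Of 20 measured genes of the GDF15 receptor and TGF-beta family 11 lay above 0 and the median was 0.01. The bone morphogenetic factor gene Gdf6 was the 1 member past 2-fold, at 1.30 with signals of 147 after noise and 52.4 at baseline (0.78 with the normexp background), and the inhibin gene Inhbb was lowest at -0.68.

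Immediate early genes, a list that shares the AP-1 factors above, had 22 of 27 measured genes above 0 and a median of 0.42. Over all measured genes 47.5% lay above 0, 0.611% were at least 2-fold higher and 1.25% at least 2-fold lower. The list was chosen with earlier results known, so nothing is read from its counts against these shares. Past 2-fold were Ier3 (1.95), Maff (1.55), Fosb (1.20) and Fos (1.07) on the higher side, and the neuronal activity genes Egr4 (-1.96) and Arc (-1.39) on the lower. With the normexp background Fosb was at 0.43, Fos at 0.99 and Egr4 at -0.47. Gdf15 at 2.49 was higher than each gene of this list measured on both arrays.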
